A study of Mus musculus with 9 samples.

Results

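Resident and alternatively activated macrophages are the tissue macrophages that clear dead cells, scavenge ligands and respond to type 2 cytokines, and 10 genes known for marking them were followed in fat dissected from around the prostate (periprostatic fat). The genes were Timd4, Lyve1, Folr2, Cd163, Mrc1, Cd209f, Clec10a, Mgl2, Retnla and Chil3, and a gene was read where an array probe set carried its symbol and no other. That left 9 of the 10 among 22180 genes measured. The only listed probe set for Cd209f also carries Cd209g, so Cd209f has no value of its own here. All 9 have a single probe set, so no choice among probe sets was needed.

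The mice were male C57BL/6J animals with no genetic change stated in the labels. High fat mice (5) ate a diet with 60% of its energy from fat and low fat mice (4) a diet with 10%, from 6 weeks of age for 12 weeks, with free access to food, and fat was taken at 18 weeks. Each mouse gave 1 Affymetrix Mouse Gene 2.0 ST array, and values are log2 expression as the authors deposited them. The comparison asks which transcripts of whole fat differ between the diets, and the number of arrays limits its precision.

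The 7 adipocyte marker genes had list means of 11.67 to 12.29 on the log2 scale, far above the arrays' medians of 6.91 to 6.98, whereas all 8 measured prostate and seminal vesicle genes stayed below the arrays' medians on every array. Adipocyte markers were thus high and prostate markers low, and no marker here tells the periprostatic depot from other fat. Low fat mouse 2 stood apart in smooth muscle genes (list mean 10.66, with its diet mates at 8.36 to 8.40) and in lymphatic endothelial genes (7.73, with its diet mates at 6.50 to 6.64). High fat mouse 1 stood apart in skeletal muscle genes (8.79, with its diet mates at 6.33 to 6.44), and so did low fat mouse 4 (7.58, with its diet mates at 6.37 to 6.55). The value distributions of high fat mice 1 and 2 were slightly wider than those of the other 7 arrays (SD 1.87 against 1.83 to 1.84). Without high fat mice 1 and 2 together, and without low fat mouse 2, the same 4 of the 9 genes passed the diet test.

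Macrophages of adipose tissue fall broadly into resident cells that sit along vessels and in the matrix, and cells recruited from blood monocytes as fat expands. Resident cells are recognised by Timd4, Lyve1 and Folr2 and by scavenger receptors such as Cd163 and Mrc1. Interleukin-4 and interleukin-13, acting through the receptor chain Il4ra and the transcription factor Stat6, drive the program called alternative activation, whose mouse markers include Mrc1, the galactose-binding lectins Clec10a and Mgl2, and the secreted proteins Retnla and Chil3. Lean fat is known to be rich in such cells.

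In high fat diet, Folr2, Mrc1 and Clec10a rose, by 1.78-fold, 1.45-fold and 1.33-fold, and Timd4 fell, to a level 1.35-fold lower. Differences of Lyve1, Cd163, Mgl2, Retnla and Chil3 did not pass the test. The test was limma's moderated test with Benjamini-Hochberg adjustment over all 22180 genes and a threshold of 0.05 on the adjusted p. It called 4 of the 9 genes, 3 higher and 1 lower, and over all genes it called 21.5%, with 12.4% higher and 9.13% lower. Counts in the gene lists below are to be read beside these shares. The diets did not overlap for the same 4 genes, 3 higher and 1 lower, and over all genes they did not overlap for 20.7%, with 11.6% higher and 9.15% lower. The split over all genes, 2742 higher and 2026 lower, turned to 2320 and 2771 when quantile normalization was repeated and to 2227 and 3056 when each array was centred on its median, and the 4 calls among the 9 genes held in both. The median difference over the 9 genes was -0.17 on the log2 scale, beside 0.00 over all genes. In whole tissue, fewer cells of a type and less RNA per cell cannot be told apart, which holds for every value here. The labels do not say whether mice shared cages or litters.

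**Figure D1:**
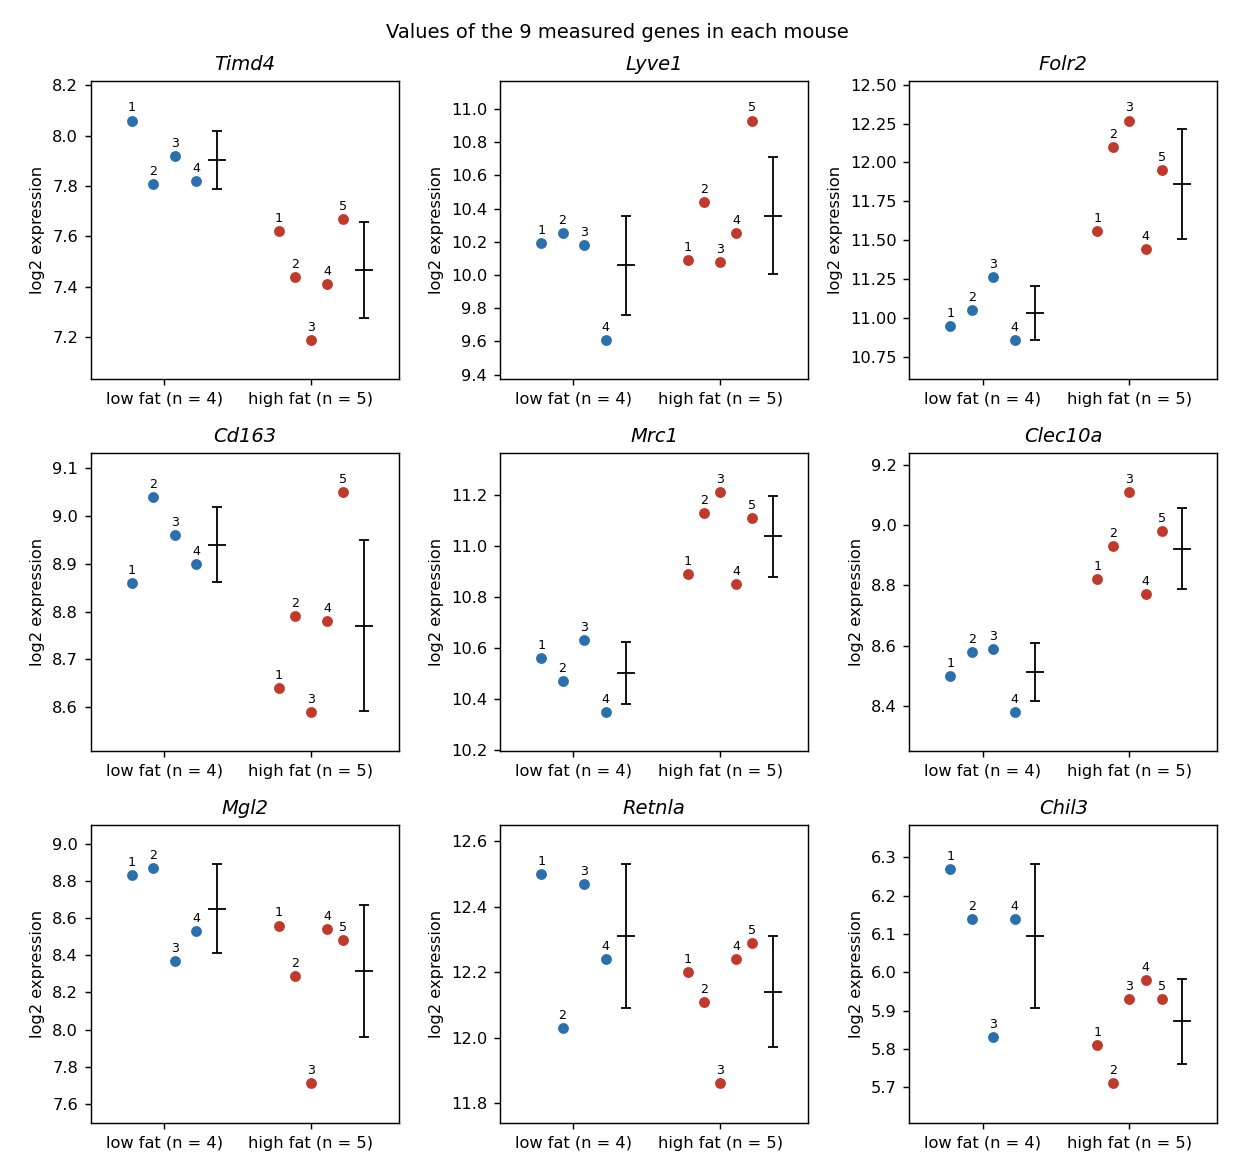
Log2 expression (vertical axis, 1 scale per gene) of the 9 measured genes in each low fat mouse (blue, n = 4) and each high fat mouse (red, n = 5). Points carry the mouse number and the bar gives the mean and SD; the diets do not overlap for Timd4, Folr2, Mrc1 and Clec10a.

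Timd4 encodes a receptor for phosphatidylserine, the lipid that dying cells expose, and marks long-lived resident macrophages. Its log2 value was 7.62, 7.44, 7.19, 7.41 and 7.67 in high fat mice 1 to 5, and 8.06, 7.81, 7.92 and 7.82 in low fat mice 1 to 4. Every high fat mouse lay below every low fat mouse, and the diets were separated by a gap of 0.14. The difference was -0.44 ± 0.10 (SE), with a limma adjusted p of 0.00995. The lymphocyte marker list was also lower in each high fat mouse (list means 7.20 to 8.12, against 8.19 to 8.89 in low fat mice). In that list Jchain, the joining chain of secreted antibodies, was the member that passed the test (-1.97 ± 0.46, SE, limma adjusted p = 0.0131), and 7 of 8 did not; the part of lymphoid cells in the Timd4 difference was not tested.

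Folr2 encodes folate receptor beta, a folate-binding protein on the surface of resident macrophages. It was at 11.56, 12.10, 12.27, 11.44 and 11.95 in high fat mice 1 to 5, and at 10.95, 11.05, 11.26 and 10.86 in low fat mice 1 to 4. High fat mice 2 and 3 were highest and high fat mouse 4 lowest among the high fat animals, still above all low fat mice. The difference was 0.83 ± 0.17 (SE), with a limma adjusted p of 0.00586. A search for genes with a similar pattern left out the 9 genes themselves and predicted or unnamed gene models. The pattern of Folr2 over the 9 mice was most like those of Gpr176, an orphan receptor, Layn, which encodes the hyaluronan-binding protein layilin, and Aprt, an enzyme of purine salvage. After each gene was centred on its own mean, their root mean square difference from Folr2 over 9 arrays was 0.093, 0.116 and 0.128 log2 units. Stab1, a scavenger receptor of resident macrophages, came next, at 0.129, and is given beyond the 3 most similar genes. Folr2 was the only 1 of the 9 genes whose SD over all mice exceeded 0.5, the minimum set for this search.

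Lyve1 encodes a hyaluronan receptor shared by lymphatic endothelium and a set of perivascular macrophages. It was at 10.09, 10.44, 10.08, 10.25 and 10.93 in high fat mice 1 to 5, and at 10.19, 10.25, 10.18 and 9.61 in low fat mice 1 to 4. The diets overlapped, with high fat mouse 5 far above and low fat mouse 4 far below the other mice. The difference of 0.30 ± 0.19 (SE) did not pass (limma adjusted p = 0.317), and its 95% interval ran from -0.12 to 0.72. It was 0.16 without high fat mouse 5 and 0.15 without low fat mouse 4. Of 6 measured lymphatic endothelial genes, Pdpn, which encodes podoplanin, passed (0.79), and 5 did not. Those 5 went the other way, at -0.44 to -0.12, and the list median was -0.21. Without low fat mouse 2 the difference was -0.06 for Prox1 and 0.23 for Mmrn1. Low fat mouse 2 was highest for the lymphatic genes Prox1 (6.68, with its diet mates at 5.72 to 5.86) and Mmrn1 (8.56, against 5.76 to 5.99). Its Lyve1 value of 10.25 was the highest of the low fat mice, beside 10.19 and 10.18 in low fat mice 1 and 3. The part of lymphatic endothelium in the Lyve1 values was not tested. Mesothelial genes, of which 0 of 7 passed, had their highest list mean in high fat mouse 5 (8.96) and their lowest in low fat mouse 4 (7.35), the same mice as Lyve1. Over the other mice that list mean ran from 7.80 to 8.60, and the part of mesothelial tissue in the Lyve1 values was not tested.

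The genes Timd4, Lyve1 and Folr2 are commonly used together to define resident macrophages, and here they did not move alike. The log2 distance between Folr2 and Timd4 was 3.94 to 5.08 in high fat mice and 2.89 to 3.34 in low fat mice, a difference of 1.27 (exact permutation p = 0.0159). Each of these genes alone already separated the diets, in opposite directions, so this p was fixed beforehand and adds nothing to their separate results. That between Lyve1 and Timd4 was 2.47 to 3.26 in high fat mice and 1.79 to 2.44 in low fat mice, a difference of 0.74 (exact permutation p = 0.0159). Between Folr2 and Lyve1 the diets overlapped, and the difference of 0.53 had an exact permutation p of 0.0794. These tests are two-sided and unadjusted. Over the 126 assignments of 9 mice to groups of 5 and 4 their smallest possible p is 0.0159, and 4 such pairs were tested, chosen after the values were seen.

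Mrc1 encodes the mannose receptor, CD206, which takes up glycoproteins and collagen fragments. It was at 10.89, 11.13, 11.21, 10.85 and 11.11 in high fat mice 1 to 5, and at 10.56, 10.47, 10.63 and 10.35 in low fat mice 1 to 4. All high fat mice lay above all low fat mice, with a gap of 0.22, the widest among the 4 genes called. The difference was 0.53 ± 0.09 (SE), with a limma adjusted p of 0.00184.

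Cd163 encodes the scavenger receptor for complexes of haemoglobin and haptoglobin. It was at 8.64, 8.79, 8.59, 8.78 and 9.05 in high fat mice 1 to 5, and at 8.86, 9.04, 8.96 and 8.90 in low fat mice 1 to 4. Low fat mice were tightly grouped, 4 of 5 high fat mice lay below them, and high fat mouse 5 was the highest of all 9. The difference of -0.17 ± 0.09 (SE) did not pass (limma adjusted p = 0.215, 95% interval -0.37 to 0.03). Without high fat mouse 5 it was -0.24 and passed, with a limma adjusted p of 0.0267.

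Clec10a and Mgl2 encode the paired macrophage galactose-type lectins CD301a and CD301b, which bind glycans ending in galactose or its N-acetylated form. The genes are closely related copies, so their probe sets may share signal. Clec10a was at 8.82, 8.93, 9.11, 8.77 and 8.98 in high fat mice 1 to 5, and at 8.50, 8.58, 8.59 and 8.38 in low fat mice 1 to 4. No mouse of either diet entered the other's range. The difference was 0.41 ± 0.07 (SE), with a limma adjusted p of 0.00317.

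Mgl2 was at 8.56, 8.29, 7.71, 8.54 and 8.48 in high fat mice 1 to 5, and at 8.83, 8.87, 8.37 and 8.53 in low fat mice 1 to 4. Low fat mice 1 and 2 were highest, high fat mouse 3 lay far below all others, and the remaining mice mixed. The difference of -0.34 ± 0.18 (SE) did not pass (limma adjusted p = 0.227, 95% interval -0.73 to 0.06), and it was -0.18 without high fat mouse 3. The distance between the copies, Clec10a minus Mgl2, was 0.24 to 1.40 in high fat mice and -0.33 to 0.22 in low fat mice, a difference of 0.75 (two-sided exact permutation p = 0.0159, the smallest it can give). The widest distance, 1.40, was that of high fat mouse 3, and the other high fat mice lay between 0.24 and 0.64.

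Dendritic cells also carry these lectins. Of 9 measured dendritic cell genes 4 rose and 0 fell, beside 12.4% higher and 9.13% lower over all genes. The list mean was 8.03 to 8.24 in high fat mice and 7.58 to 7.89 in low fat mice. The members that rose were Irf8 (1.13), a transcription factor of myeloid cells, Sirpa (1.03), a receptor for the signal CD47, Ccl22 (0.81), a chemokine, and Batf3 (0.24), a transcription factor. Differences of the other 5 did not pass and ran from -0.08 (Zbtb46, a transcription factor) to 0.32. The Batf3 call was lost when high fat mouse 2, 3 or 4 or low fat mouse 1, 2 or 4 was left out (0.20 to 0.26, limma adjusted p up to 0.0751). It was also lost with quantile normalization repeated (0.20, limma adjusted p = 0.071) and with arrays centred on their medians (0.20, limma adjusted p = 0.0651). Irf8 was at 0.72 and still passed when its probe sets were averaged instead of the brightest being taken. The part of dendritic cells in the lectin values was not tested.

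Retnla encodes RELM-alpha, a secreted cysteine-rich protein that interleukin-4 and interleukin-13 induce in macrophages. Its promoter, read from RefSeq (GRCm38.p6, chr16:48842359-48842658, plus strand, 250 bases before to 50 after the gene's start), is shown because it was the only promoter of these genes to hold the Stat6 letters searched for, and it is set beside those of Timd4, which fell (chr11:46810549-46810848, plus strand), and Mrc1, which rose (chr2:14229164-14229463, plus strand). Capitals mark matches on either strand to the letters TTCNNNNGAA (Stat6), GAGGAAGT (PU.1, a myeloid factor), TGCTGAC (recognised by the Maf family of macrophage transcription factors) and, for the TATA box near which transcription starts, TATAAA. No match overlaps another.
Retnla: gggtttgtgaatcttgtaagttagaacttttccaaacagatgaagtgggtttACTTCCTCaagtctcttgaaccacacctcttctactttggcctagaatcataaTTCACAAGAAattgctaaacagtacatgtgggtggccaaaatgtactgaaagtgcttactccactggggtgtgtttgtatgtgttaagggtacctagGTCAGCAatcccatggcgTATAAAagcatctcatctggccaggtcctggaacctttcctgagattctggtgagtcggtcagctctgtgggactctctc
Timd4: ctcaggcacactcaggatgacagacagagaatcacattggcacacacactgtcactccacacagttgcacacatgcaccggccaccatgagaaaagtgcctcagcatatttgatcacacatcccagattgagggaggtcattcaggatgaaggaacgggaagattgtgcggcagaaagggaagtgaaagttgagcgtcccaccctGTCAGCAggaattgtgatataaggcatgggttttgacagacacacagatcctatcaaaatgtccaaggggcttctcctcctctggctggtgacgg
Mrc1: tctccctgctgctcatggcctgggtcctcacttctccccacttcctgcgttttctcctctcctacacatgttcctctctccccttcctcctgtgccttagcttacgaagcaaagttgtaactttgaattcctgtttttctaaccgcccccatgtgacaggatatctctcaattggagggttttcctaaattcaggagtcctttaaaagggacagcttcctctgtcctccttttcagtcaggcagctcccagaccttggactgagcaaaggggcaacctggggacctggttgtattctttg
In Retnla the Stat6 letters begin 145 bases before the start, the PU.1 letters 198, the Maf letters 48 and the TATA box 30. In Timd4 the Maf letters begin 45 bases before the start, and Mrc1 holds none of the 4 motifs in this window. Of 32851 promoters of this length in the table, 6.95% hold the Stat6 letters, 3.20% PU.1, 4.67% Maf and 13.6% the TATA box. The table holds 9 promoters of 8 of the 10 genes (2 for Folr2), and 5 of these 9 hold none of the motifs. A match is a run of letters and not a site shown to be bound.

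Retnla was at 12.20, 12.11, 11.86, 12.24 and 12.29 in high fat mice 1 to 5, and at 12.50, 12.03, 12.47 and 12.24 in low fat mice 1 to 4. Low fat mice 1 and 3 were highest, but low fat mouse 2 lay below 4 of the 5 high fat mice, and the diets overlapped. The difference of -0.17 ± 0.11 (SE) did not pass (limma adjusted p = 0.336, 95% interval -0.43 to 0.08). It was -0.10 without high fat mouse 3, -0.11 without low fat mouse 1 and -0.27 without low fat mouse 2. Among its relatives, Retn, the adipocyte hormone resistin, fell (-0.39 ± 0.07, SE, limma adjusted p = 0.00264), from 13.75 ± 0.03 (SD, n = 4) to 13.36 ± 0.14 (SD, n = 5).

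Chil3 encodes Ym1, a chitinase-like protein of alternatively activated macrophages and neutrophils. It was at 5.81, 5.71, 5.93, 5.98 and 5.93 in high fat mice 1 to 5, and at 6.27, 6.14, 5.83 and 6.14 in low fat mice 1 to 4. Of the 9 genes it was the only 1 below the arrays' medians (6.91 to 6.98 over the genes tested) in every mouse, and with no detection calls it is not known whether it lay above background. Low fat mouse 3 fell among the high fat mice, and the other 3 low fat mice lay above them. The difference of -0.22 ± 0.09 (SE) did not pass (limma adjusted p = 0.112, 95% interval -0.42 to -0.02). Without low fat mouse 3 it was -0.31 and passed, with a limma adjusted p of 0.0145. Its near copy Chil4 was at 4.86 ± 0.03 (SD, n = 5) and 4.92 ± 0.05 (SD, n = 4), a difference of -0.06 that did not pass.

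Of 10 measured monocyte and neutrophil genes, 3 rose and 1 fell, beside 12.4% higher and 9.13% lower over all genes. S100a8, a calcium-binding alarmin, rose by 1.03, the fractalkine receptor gene Cx3cr1 by 0.37 and the monocyte chemokine receptor gene Ccr2 by 0.42, and neutrophil elastase, Elane, fell by 0.60 (log2 differences). Differences of the other 6 did not pass and ran from -0.10 (Plac8) to 0.23 (Csf3r). S100a8 lay below the arrays' medians in every mouse but high fat mouse 5 (7.43, with its diet mates at 6.75 to 6.83). The list mean was 7.40 to 7.68 in high fat mice and 7.30 to 7.41 in low fat mice. The Ccr2 call was lost without high fat mouse 1, 2, 4 or 5 or low fat mouse 2 or 4 (0.35 to 0.44, limma adjusted p up to 0.0875). The part of these cells in the Chil3 values was not tested.

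**Figure D2:**
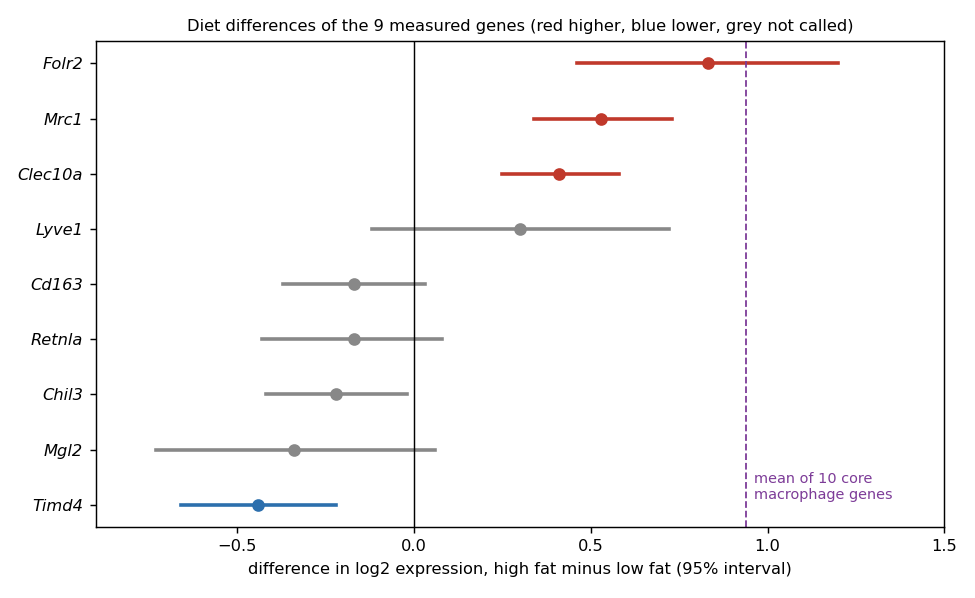
Difference in log2 expression, high fat minus low fat, of each of the 9 genes with its 95% interval from the moderated test; the dashed line is the difference of the mean of 10 core macrophage genes (0.94). The intervals of Mrc1 (0.34 to 0.73), Clec10a (0.25 to 0.58) and Timd4 (-0.66 to -0.22) exclude 0 and lie wholly below the line, and that of Folr2 (0.46 to 1.20) includes the line. The interval of Chil3 (-0.42 to -0.02) also excludes 0 and lies below the line, although its limma adjusted p did not pass. Those of Lyve1, Cd163, Mgl2 and Retnla include 0 and lie below the line, which is drawn without its own uncertainty.

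General macrophage genes rose more than most of these markers. The mean of 10 core macrophage genes was 10.57, 10.69, 10.82, 10.26 and 10.43 in high fat mice 1 to 5 and 9.77, 9.65, 9.59 and 9.46 in low fat mice 1 to 4, a difference of 0.94 or 1.91-fold. Of these genes 8 rose, among them Adgre1 (1.17), a surface receptor widely used to mark mouse macrophages, Csf1r (0.83), the receptor for the macrophage growth factors, Cd68 (1.87) and the complement gene C1qb (0.92). Mertk, a receptor for uptake of dying cells, fell (-0.14) and Aif1 did not pass (0.34, and 0.21 without low fat mouse 3). The Mertk call held in 2 of 9 fits that each left out 1 mouse, those without high fat mouse 4 and without low fat mouse 1; elsewhere the difference was -0.15 to -0.13 (limma adjusted p up to 0.0843). Lipid-associated macrophage genes rose in 8 of 10 measured members, with Trem2 at 3.38 and Itgax at 3.13. Over all genes 12.4% were called higher and 9.13% lower.

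Each gene was then read against the core macrophage mean of the same mouse. Folr2 was 0.98 to 1.51 above that mean in high fat mice and 1.18 to 1.67 above it in low fat mice, so the diets overlapped. Its relative difference was -0.11 ± 0.14 (SE, least squares for the gene alone), which did not pass (exact permutation p = 0.54). Mrc1 stood 0.31 to 0.67 above the mean in high fat mice and 0.79 to 1.03 above it in low fat mice, a relative difference of -0.40 (exact permutation p = 0.0159). Clec10a was lower relative to the mean by 0.53, from -1.11 ± 0.12 (SD, n = 4) to -1.63 ± 0.15 (SD, n = 5) (exact permutation p = 0.0159).

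Relative differences were -1.37 for Timd4, -1.27 for Mgl2, -1.16 for Chil3 and -1.11 each for Cd163 and Retnla, with an exact permutation p of 0.0159 for each. That of Lyve1 was -0.64 (exact permutation p = 0.0476). In limma 8 of the 9 genes passed relative to the core mean, all of them lower, but 97.4% of all genes passed and 96.7% were lower, since a gene that does not change with diet falls by 0.94 against this reference. Without moderation of variances 8 of the 9 passed as lower, beside 96.1% of all genes. The diets did not overlap, with high fat lower, for 7 of the 9 genes and for 93.2% of all genes. These counts, and the permutation p values of 0.0159 and 0.0476, therefore say nothing particular of these genes. The core mean alone separated the diets (exact permutation p = 0.0159). Timd4 alone separated them in the opposite direction, so its relative p was fixed beforehand. The values show only how far each gene followed the macrophage mean. The 9 permutation tests of relative values are two-sided and unadjusted.

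**Figure D3:**
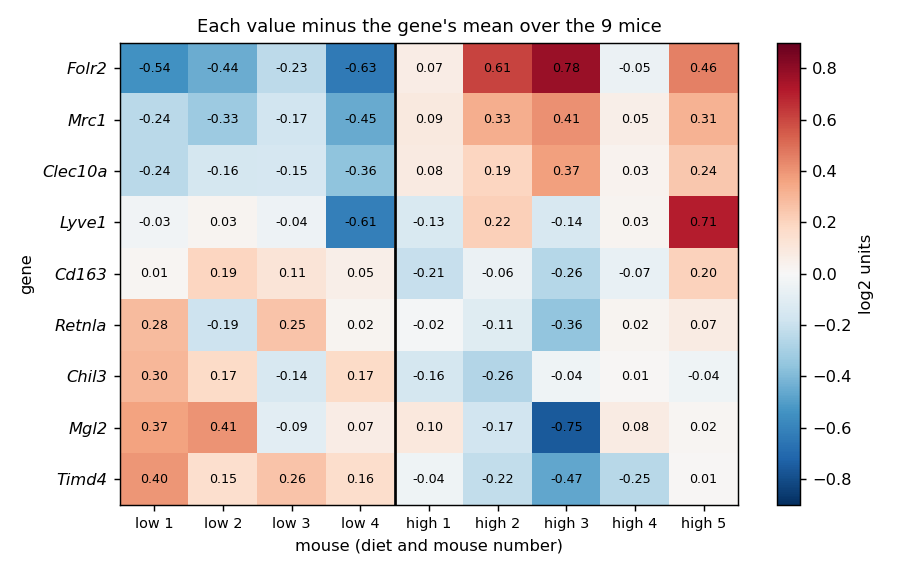
Each gene's log2 value minus its mean over the 9 mice, by mouse (columns; low fat left of the line, high fat right). High fat mouse 3 is the highest high fat animal for Folr2, Mrc1 and Clec10a and the lowest for Lyve1, Cd163, Retnla, Mgl2 and Timd4.

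Among mice on the same diet the genes also split. High fat mouse 3 had the highest Folr2, Mrc1 and Clec10a of the high fat mice and the lowest Timd4, Lyve1, Cd163, Mgl2 and Retnla. It was also highest for 8 of the 10 core macrophage genes. High fat mouse 4, lowest for 8 of the 10 core genes, was lowest for Folr2, Mrc1 and Clec10a. High fat mouse 5 was highest for Timd4, Lyve1, Cd163 and Retnla. In the low fat diet, mouse 3 was highest and mouse 4 lowest for Folr2, Mrc1 and Clec10a. Of the 10 core genes, low fat mouse 3 was highest for 1 and low fat mouse 1 for 6, and low fat mouse 4 was lowest for 5. This is a description of 9 animals with no test.

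Relatives of the 9 genes by family were measured for 29 of 30 listed, of which 4 rose and 3 fell (median difference 0.01). Over all genes 12.4% were called higher and 9.13% lower, so these counts show nothing particular of the relatives. Mrc2, a collagen receptor of mesenchymal cells related to Mrc1, rose 5.02-fold, from 7.93 ± 0.23 (SD, n = 4) to 10.26 ± 0.17 (SD, n = 5). Havcr2, which encodes the receptor TIM-3 of the Timd4 family, rose by 0.83, and the scavenger receptor genes Stab1 and Stab2 by 0.68 and 0.24. Havcr2 lay below the arrays' medians in every mouse but high fat mice 2 and 3 (7.05 and 7.17). The Stab2 call was lost without high fat mouse 1, 2 or 3 or low fat mouse 1 or 2 (0.19 to 0.25, limma adjusted p up to 0.0732) and when each array was centred on its median (0.20, limma adjusted p = 0.0656), and its values lay below the arrays' medians.

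Cd209g, a C-type lectin gene of the same cluster as Cd209f, fell by 0.65 ± 0.14 (SE, limma adjusted p = 0.00956). It was at 8.66, 9.17, 8.73, 8.72 and 9.24 in high fat mice 1 to 5 and at 9.57, 9.29, 9.58 and 9.78 in low fat mice 1 to 4, so the diets did not overlap. The related lectin genes Cd209a (-0.06), Cd209b (-0.12) and Cd209d (0.08) did not pass. Genes of this cluster resemble each other and may share signal. Besides Retn, the third that fell was Retnlg (-0.21), a relative of Retnla with values below the arrays' medians, whose call was lost without high fat mouse 1 or 2 or low fat mouse 2 or 4 (-0.20 to -0.17, limma adjusted p up to 0.0706).

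Of 22 other resident macrophage genes measured, 4 rose and 3 fell, beside 12.4% higher and 9.13% lower over all genes. Hpgds, the synthase of prostaglandin D, rose 4.93-fold, the scavenger receptor gene Colec12 by 0.54, the receptor gene Axl by 0.44 and the platelet factor gene Pf4 by 0.39. Those that fell were Gata6 (-0.56), a transcription factor of peritoneal macrophages that mesothelium also expresses, Fcgrt (-0.28), the neonatal Fc receptor gene, and Mertk. The Pf4 call was lost without high fat mouse 2 or 3 or low fat mouse 1 or 2 (0.35 to 0.37, limma adjusted p up to 0.062). The median over this list was 0.16.

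**Figure D4:**
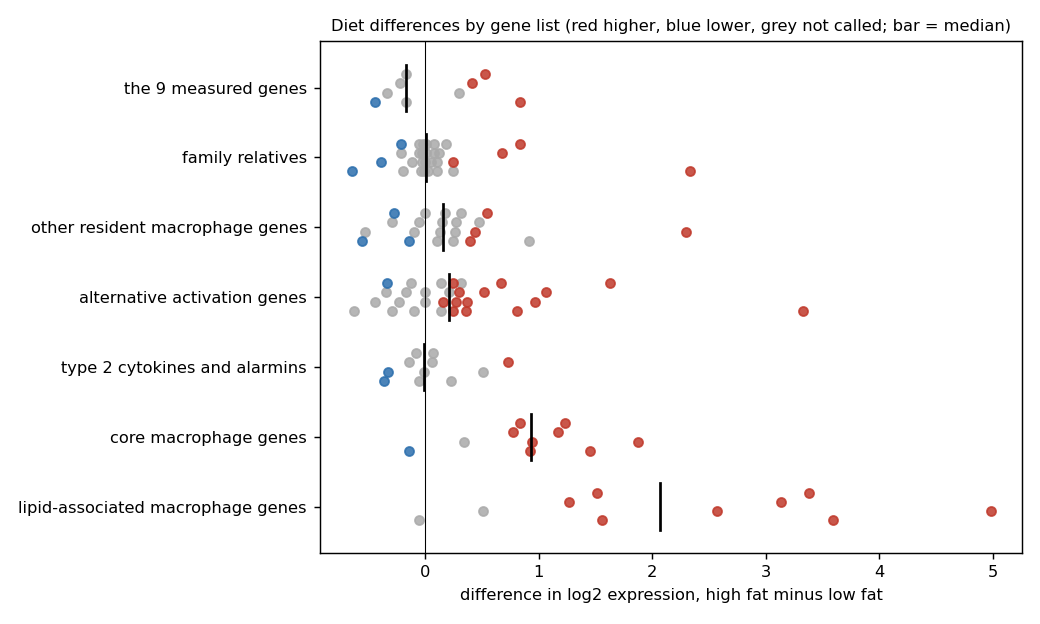
Diet difference in log2 expression (horizontal axis) of every measured gene in 7 lists, 1 point per gene, with the list median as a bar. The 9 genes (median -0.17) spread on either side of 0, and the core and lipid-associated macrophage lists have medians of 0.93 and 2.06.

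In the list of alternative activation genes, 14 of 29 measured members rose and 1 fell, with a median of 0.21. The remaining 14 did not pass and went in either direction. Ccl22 and Batf3 are among those that rose and were also counted with the dendritic cell genes. The core macrophage mean differed by 0.94, and the rises in this list were not read against it. Over all genes 12.4% were called higher and 9.13% lower. The receptor chains rose, Il4ra by 0.37 ± 0.09 (SE, limma adjusted p = 0.0131) and Il13ra1 by 0.67 ± 0.08 (SE, limma adjusted p = 0.000442), and so did Stat6 by 0.30 ± 0.07 (SE, limma adjusted p = 0.0112). Without high fat mice 1 and 2 together Stat6 no longer passed (0.30, limma adjusted p = 0.0623). Il1rn, the interleukin-1 receptor antagonist, rose by 1.63, the macrophage elastase gene Mmp12 by 3.33 and the scavenger receptor gene Msr1 by 1.06. The member that fell was Pparg (-0.34), which adipocytes also express strongly. Of 7 adipocyte genes 6 fell, with list means of 11.67 to 11.87 in high fat mice and 12.16 to 12.29 in low fat mice, and their part in the Pparg difference was not tested.

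Arg1, the arginase of alternatively activated mouse macrophages, had a mean of 6.71 on either diet (SD 0.10, n = 5, for high fat and SD 0.34, n = 4, for low fat), with a difference of 0.00 (95% interval -0.30 to 0.30). Il10, an anti-inflammatory cytokine, was at 5.62 ± 0.18 (SD, n = 5) and 5.32 ± 0.16 (SD, n = 4), below the arrays' medians. Its difference of 0.31 did not pass (limma adjusted p = 0.0553), although the diets did not overlap. It passed in 3 of the alternatives, those with quantile normalization repeated (limma adjusted p = 0.0446), with a variance trend and robust moderation (0.0475) and with array weights (0.0471).

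Differences of the cytokines that drive this program did not pass. Il4 (-0.01) and Il5 (-0.06) lay below the arrays' medians in every mouse. Il13 (-0.08) did so in every mouse but low fat mouse 4 (6.92, beside a median of 6.91). Il33, an alarmin of stromal cells, was at 0.51 (95% interval 0.01 to 1.02, limma adjusted p = 0.145), and Csf1, a macrophage growth factor, at 0.23 (limma adjusted p = 0.1). Of 11 measured genes in this list Tgfb1 rose (0.73), and Adipoq, which encodes adiponectin (-0.36), and Il34, the other ligand of Csf1r (-0.33), fell. Adipoq is also among the 6 adipocyte genes counted above as lower, and the part of adipocytes in its difference was not tested. Over all genes 12.4% were called higher and 9.13% lower. The Il34 call was lost without high fat mouse 2, 3 or 5 or low fat mouse 3 or 4 (-0.32 to -0.26, limma adjusted p up to 0.0845).

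Eosinophils are a source of interleukin-4 in fat. Of 5 measured eosinophil genes, 4 lay below the arrays' medians on every array, the lectin gene Siglecf rose (0.23) and the interleukin-5 receptor gene Il5ra fell (-0.63). Both calls were fragile. Siglecf was lost without any of high fat mice 1 to 5 or without low fat mouse 2 or 3 (0.17 to 0.26, limma adjusted p up to 0.112), and Il5ra without high fat mouse 2, 3 or 5 or low fat mouse 1, 3 or 4 (-0.66 to -0.48, limma adjusted p up to 0.117). Siglecf was also lost with quantile normalization repeated (0.21, limma adjusted p = 0.0673), with arrays centred on their medians (0.19, limma adjusted p = 0.0829) and with every row of the table tested (0.23, limma adjusted p = 0.0612). Il5ra was also lost with every row tested (-0.63, limma adjusted p = 0.0657). The list mean was 5.79 to 5.93 in high fat mice and 5.77 to 5.97 in low fat mice.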

How the data were processed

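Periprostatic fat of 9 mice was measured on 1 array each. The authors deposited log2 expression for each probe set. RMA, limma and R 3.5.0 are named in the submitters' processing notes without their roles. RMA equalises probe distributions across arrays, so a change shared by most genes would be reduced. Depth does not apply to arrays, and their number limits precision.

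Of 33793 rows, 23521 had 1 gene symbol, 1814 several and 8458 were not listed in the probe table. Entrez identifiers matched 23328 to GRCm38.p6 names, and 0 symbols changed. Where probe sets shared a symbol (1082 genes) the brightest was kept, giving 22180 genes.

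Diet was tested with limma 3.58.1 (lmFit, eBayes) in R 4.3.3 with an intercept and diet. Relative values subtract each array's mean over 10 core macrophage genes before the same fit; that subtraction gives all genes shared noise, so SEs quoted for it come from least squares without moderation, chosen after seeing the data. Exact permutation tests used scipy 1.17.1. On simulated data of this comparison (22180 genes) the fit recovered 29 of 50 genes changed by 0.5 and 48 of 50 changed by 1 on the log2 scale, with 8 false calls among 152. The simulation changed 50 genes at each of 0.25, 0.5, 1 and 2, whereas 21.5% of all genes were called in the real data. The Benjamini-Hochberg cutoff depends on that share, so these rates do not give the sensitivity of the real comparison.

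The genes and lists were chosen with earlier results of these data known. The naming rule covers the 9 genes, their relatives, the type 2 cytokine list, the 4 genes with the smallest p per direction in each other list, 10 fixed genes and the 3 most similar genes of any member with an SD over 0.5. Il4ra and Stat6 are fixed genes. Alternatives covered normalization, centring, dim genes, probe choice, rows, the variance model, weights for arrays, a replicate block (mouse number), reference genes and leaving out mice.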

Additional observations from a re-analysis of the deposited data

Results flagged for a closer look

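The highest or lowest mouse of a diet stood far from the others in 11 of the 194 diet groups of genes and lists checked (chance gives about 1 in 20). Among the 9 genes this held for Lyve1 in low fat mouse 4 (9.61, against 10.18 to 10.25). The same mouse was lowest for C1qb (11.38, against 11.65 to 11.70) and highest for the skeletal muscle list (7.58, against 6.37 to 6.55). Low fat mouse 2 was highest for Prox1 (6.68, against 5.72 to 5.86), Mmrn1 (8.56, against 5.76 to 5.99), the lymphatic endothelial list (7.73) and the smooth muscle list (10.66). High fat mouse 1 was highest for the skeletal muscle list (8.79) and lowest for the type 2 cytokine list (7.59, against 7.66 to 7.69). High fat mouse 5 was highest for S100a8 (7.43, against 6.75 to 6.83), and low fat mouse 1 for Il5 (5.83, against 5.77 in each other low fat mouse).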

How the results depend on the processing

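Folr2, Mrc1, Clec10a and Timd4 passed with the same direction in all 18 alternatives of the diet test, at 0.73 to 0.93, 0.48 to 0.58, 0.36 to 0.45 and -0.49 to -0.37 (log2). The count of genes higher stayed at 3 throughout. The count lower was 2 with the mouse number as a replicate block, where Cd163 passed (-0.24, limma adjusted p = 0.0338), and 1 to 2 when single mice were left out, with Cd163 at -0.24 to -0.12 and Chil3 at -0.31 to -0.16. Low fat mice are numbered 1 to 4, so high fat mouse 5 does not enter the diet difference of the block fit. That fit is thus not separate from leaving out high fat mouse 5, where Cd163 was also at -0.24. Same-numbered mice of the diets correlated at 0.0479 to 0.126 in their deviations from diet means, and mouse 2 was the only number whose mice matched each other best, so the numbers give no pairing. With the block, 2421 genes were higher and 1615 lower, against 2742 and 2026. Repeating quantile normalization gave 2320 genes higher and 2771 lower, and centring each array on its median gave 2227 and 3056. Without high fat mice 1 and 2 together 1716 were higher and 1494 lower. Relative to the core macrophage mean, Mrc1 did not pass against Csf1r alone (-0.30) or with high fat mice 1 and 2 left out (-0.33), and Folr2 passed with array weights (-0.54), a fit whose weights did not converge. The calls of Stab2, Retnlg, Mertk, Stat6, Il34, Ccr2, Siglecf, Il5ra and Batf3 were lost without high fat mice 1 and 2 together, and those of Retnlg, Mertk, Il34, Ccr2, Siglecf and Il5ra with the replicate block. The cause of these changes was not tested. Chil3 had no value with dim genes left out. List counts moved by over 1.5 times where they were small. The count of core macrophage genes lower ran from 0 to 1, type 2 cytokine genes and lymphocyte genes lower from 1 to 2 each, vascular endothelial genes lower and smooth muscle genes higher from 0 to 2 each, and lipid-associated, monocyte and neutrophil and eosinophil genes lower, and eosinophil genes higher, from 0 to 1 each. Family relatives higher ran from 2 to 4 and alternative activation lower from 1 to 2.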
